A study of Drosophila melanogaster with 34 samples.

Results

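Transposon accessibility was measured by ATAC-seq after knockdown of Maelstrom (Mael) in OSC, or ovarian somatic cells, a Drosophila melanogaster culture line with the character of ovarian follicle cells. ATAC-seq inserts sequencing adapters into DNA with a transposase, so a sequence gains reads where its chromatin is open. Mael-KD cells carried siRNA against Mael and Control-KD cells carried siRNA against EGFP, a marker gene foreign to flies. Both were transfected by nucleofection and grown at 26 degrees on OSC medium. The labels name 2 ATAC-seq replicates for each, which makes 4 of the 34 samples of the series, but the deposited table holds 1 column for each condition. Columns for Piwi-KD, HP1a-KD and H1-KD cells stand beside them, and all 5 come from the same line. All 129 transposon consensus rows of the table are the members. With 1 column on each side there is no spread between replicates, so no difference below has a test, and the intervals given cover counting error only. The tables hold no gene rows, so neither the loss of Mael nor the identity of the cells could be checked in them.

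Mael is a conserved factor of the nuclear piRNA pathway. In ovarian somatic cells, Piwi carries piRNAs into the nucleus and silences matching transposons during transcription, with methylation of histone H3 at lysine 9 (H3K9me3), the heterochromatin protein HP1a and the linker histone H1 among the chromatin features at its targets. Mael is needed for that silencing and is usually placed late in it, since its loss is known to release transcription while much of the H3K9me3 stays. The known targets in these cells are mostly LTR retrotransposons of the gypsy and mdg1 groups, several of which are kept in check in the follicle cells around the germline.

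The table gives 1 value per consensus in RPKM, a read count scaled by consensus length and by library depth. The values correspond to 4106936 reads in Mael-KD and 3381967 in Control-KD, of which 851650 in Mael-KD and 378862 in Control-KD were assigned to transposons. Differences are log2((Mael-KD + 5.80)/(Control-KD + 5.80)), where 5.80 RPKM is 0.1 of the table's median nonzero value. The 25% of rows with the lowest mean over the 5 columns were left out of counts, which left 96 of the 129. A transposon was counted as higher or lower at 1.5-fold.

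Accessibility was higher in Mael-KD at a few LTR retrotransposons and a little lower at most other transposons. DM297, an LTR element of the gypsy group, had by far the largest difference, and GYPSY, Gypsy2 and MDG3 followed. At the 1.5-fold threshold 8 of 96 were higher (8.33%) and 2 of 96 were lower (2.08%). The 8 were DM297, GYPSY, Gypsy2, MDG3, MDG1, COPIA, QUASIMODO and STALKER2, all LTR retrotransposons, which copy themselves through an RNA intermediate and carry long terminal repeats. The 2 that were lower were BAGGINS1, put in no class here, and HOBO, a DNA transposon. Against the control, 25 of the 96 were above and 71 below, with a median log2 difference of -0.23 and quartiles of -0.37 and 0.01. The median corresponds to 0.852 of the control value.

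**Figure D1:**
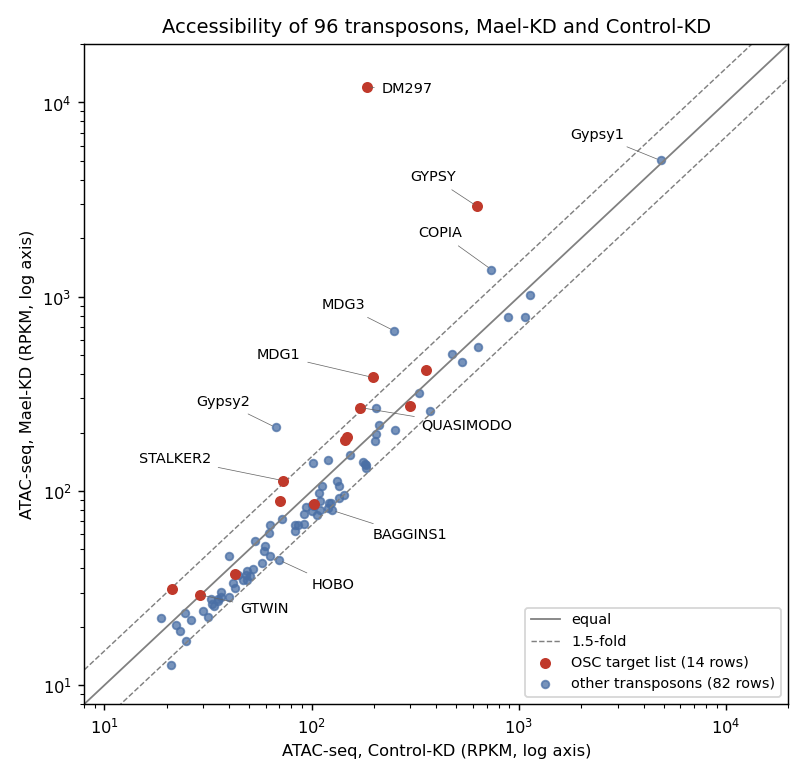
ATAC-seq values of the 96 transposons in Mael-KD (vertical log axis, RPKM) against Control-KD (horizontal log axis, RPKM), with lines of equality and of 1.5-fold drawn without the pseudocount. Most points lie just under the line of equality, and DM297 stands far above it, at 11981 RPKM in Mael-KD and 185 RPKM in Control-KD.

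DM297 had 11981 RPKM in Mael-KD, against 185 RPKM in Control-KD. These values rest on 323818 reads in Mael-KD and 4124 in Control-KD, and their ratio is 64.7 (95% counting interval 62.7 to 66.7), a log2 difference of 5.97. The next ratio in order, that of GYPSY, was 4.63. DM297 was also the transposon with most reads in the Mael-KD column, while Gypsy1 was in the control, with 5027 RPKM in Mael-KD and 4832 RPKM in Control-KD.

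GYPSY, the element that gives the group its name and encodes an envelope protein in addition to its Gag and Pol proteins, had 2917 RPKM in Mael-KD and 630 RPKM in Control-KD. The counting interval of its ratio was 4.55 to 4.71, and the log2 difference was 2.20. Gypsy2, a row deposited apart from GYPSY2, had 213 RPKM in Mael-KD and 67.0 RPKM in Control-KD, with a ratio of 3.17 (3.00 to 3.36). GYPSY2 itself was not higher, with 31.7 RPKM in Mael-KD and 42.6 RPKM in Control-KD. MDG3, another gypsy-type LTR element, had 668 RPKM in Mael-KD and 250 RPKM in Control-KD, with a ratio of 2.67 (2.58 to 2.76). DM297, GYPSY, Gypsy2 and MDG3 were the 4 that also passed 2-fold.

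The remaining 4 were between 1.5-fold and 2-fold. MDG1, the element after which the mdg1 group is called, had 384 RPKM in Mael-KD and 198 RPKM in Control-KD (ratio 1.94, 1.88 to 2.01). COPIA, an LTR element with its own order of Pol domains and strong expression in cultured Drosophila cells, had 1379 RPKM in Mael-KD and 738 RPKM in Control-KD (1.87, 1.83 to 1.91). QUASIMODO, of the gypsy group, had 269 RPKM in Mael-KD and 172 RPKM in Control-KD (1.57, 1.51 to 1.63). STALKER2, of the mdg1 group, had 113 RPKM in Mael-KD and 73.0 RPKM in Control-KD (1.55, 1.46 to 1.64), and its interval holds 1.5, so counting error alone could place it on either side. Just outside the threshold were GYPSY5 (31.2 RPKM in Mael-KD, 21.2 in Control-KD), DM412B (139 in Mael-KD, 101 in Control-KD) and DIVER (269 in Mael-KD, 204 in Control-KD), with log2 differences of 0.45, 0.43 and 0.39.

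On the lower side the differences were small and none reached 2-fold. BAGGINS1 had 79.4 RPKM in Mael-KD and 126 RPKM in Control-KD, a ratio of 0.629 (0.591 to 0.670). HOBO, which moves by cutting and pasting its DNA, had 44.1 RPKM in Mael-KD and 69.8 RPKM in Control-KD, a ratio of 0.631 (0.564 to 0.707). Both intervals hold the 1.5-fold threshold, so counting error alone could place either on either side of it. The next 6 were G, DMRT1A, GYPSY3, BATUMI, DMRT1B and R2, with log2 differences of -0.56, -0.54, -0.53, -0.53, -0.53 and -0.49. GYPSY3, at 12.7 RPKM in Mael-KD and 21.0 RPKM in Control-KD, has a ratio of 0.605 without the pseudocount and would count as lower on that scale. Neither BAGGINS1 nor HOBO was past 1.5-fold once the differences were taken relative to the median transposon.

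Because 71 of 96 transposons were under the control, the scale of the table bears on the counts. Relative to the median transposon, 11 of 96 were at least 1.5-fold higher (11.5%) and 0 were lower (0%). The 11 were the 8 above with DIVER, DM412B and GYPSY5. For the ratios as deposited, the counting interval lay wholly above 1 for 19 transposons, wholly below 1 for 59 and held 1 for 18. These counts include any shift of scale between the columns. If the columns are scaled instead by the reads outside transposons, every log2 difference without pseudocount moves up by 0.16, and the median becomes -0.09. The differences of DM297, GYPSY, Gypsy2 and MDG3 are far larger than this shift.

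Transposons took 20.7% of the ATAC-seq reads in Mael-KD and 11.2% in Control-KD, and the 9.53 percentage points between them came almost wholly from a pair of elements. DM297 took 7.88% of reads in Mael-KD and 0.122% in Control-KD, which is 7.76 points or 81.4% of the net gain. GYPSY took 2.04% in Mael-KD and 0.440% in Control-KD, a further 1.60 points or 16.8%. Together they amount to 98.2% of the net gain. COPIA added 0.312 points, MDG3 0.219, Gypsy1 0.139 and MDG1 0.131, while Gypsy2, QUASIMODO, BLOOD and DIVER, the next in order, each added less. Gypsy1, the element with most control reads, is among them with a ratio of only 1.04.

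Most transposons took a smaller share in Mael-KD. In all, 32 transposons had a larger share, with a sum of 10.5 points, and 96 of the 129 had a smaller one, with a sum of -1.01 points. The largest losses were those of R1, a retrotransposon that inserts into ribosomal RNA genes (-0.156 points), followed by DMRT1B, ROO, FW and DOC6 with -0.0607 to -0.0434 points each. Without DM297, transposons took 12.9% of reads in Mael-KD and 11.1% in Control-KD. Without DM297 and GYPSY the shares were 10.8% in Mael-KD and 10.6% in Control-KD, a difference of 0.173 points.

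**Figure D2:**
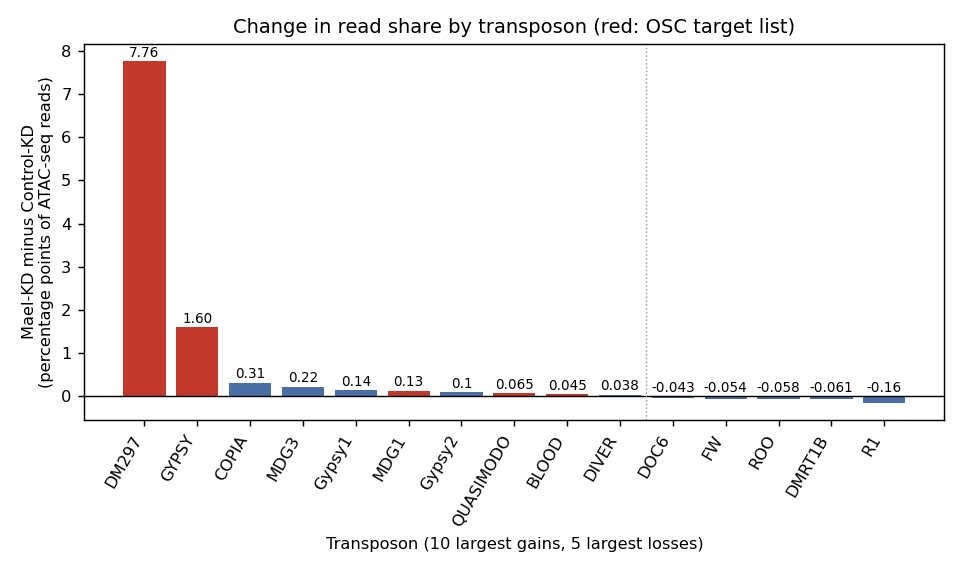
Change in the share of ATAC-seq reads (Mael-KD minus Control-KD, percentage points, linear axis from 0) for the 10 transposons with the largest gains and the 5 with the largest losses. DM297 gained 7.76 points and GYPSY 1.60 points, while every other bar is at most 0.312 points high.

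The OSC target list holds 15 transposons taken here as targets of the piRNA pathway in ovarian somatic cells. It was chosen with results of these data known and is not independent evidence of a direction. Of its 14 members kept, 5 were at least 1.5-fold higher (DM297, GYPSY, MDG1, QUASIMODO and STALKER2) and 0 lower, beside 8.33% and 2.08% of all 96. The median log2 difference of the list was 0.33, beside -0.23 for all 96, and 11 of the 14 were above the control. The list took 11.4% of reads in Mael-KD and 1.73% in Control-KD, and the transposons not on it took 9.33% in Mael-KD and 9.47% in Control-KD. Most of the list's gain of 9.68 percentage points lay in DM297 (7.76) and GYPSY (1.60), so it was not shared evenly by its members.

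Members of the list were far from uniform. DM412, of the mdg1 group, had 189 RPKM in Mael-KD and 148 RPKM in Control-KD, and TABOR had 89.2 RPKM in Mael-KD and 70.4 RPKM in Control-KD. DM176, a close relative of DM297, had 183 RPKM in Mael-KD and 145 RPKM in Control-KD, a ratio of 1.27 (1.21 to 1.32) beside the 64.7 of DM297. No source used here says how reads that match both were assigned, which makes the values of such related rows uncertain. BLOOD, a member of the mdg1 group, had 422 RPKM in Mael-KD and 358 RPKM in Control-KD.

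GTWIN, a gypsy-type element active in follicle cells, had 29.2 RPKM in Mael-KD and 29.0 RPKM in Control-KD, and its interval of 0.908 to 1.12 holds 1. STALKER4 (274 RPKM in Mael-KD, 299 in Control-KD), ZAM (37.5 in Mael-KD, 42.9 in Control-KD) and IDEFIX (85.3 in Mael-KD, 103 in Control-KD) were lower as deposited, but relative to the median transposon their log2 differences were 0.11, 0.06 and -0.03. Both ZAM and IDEFIX are gypsy-type elements controlled by the flamenco piRNA locus in follicle cells. TIRANT had 2 reads in Mael-KD and 4 in Control-KD and was left out by the filter. Its difference was not detectable at so few reads. Its row was at 0 reads in the Mael-KD input library and also in the matching Control-KD input library. Its RNA was 0 RPKM in Piwi-KD, H1-KD and Control-KD.

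**Figure D3:**
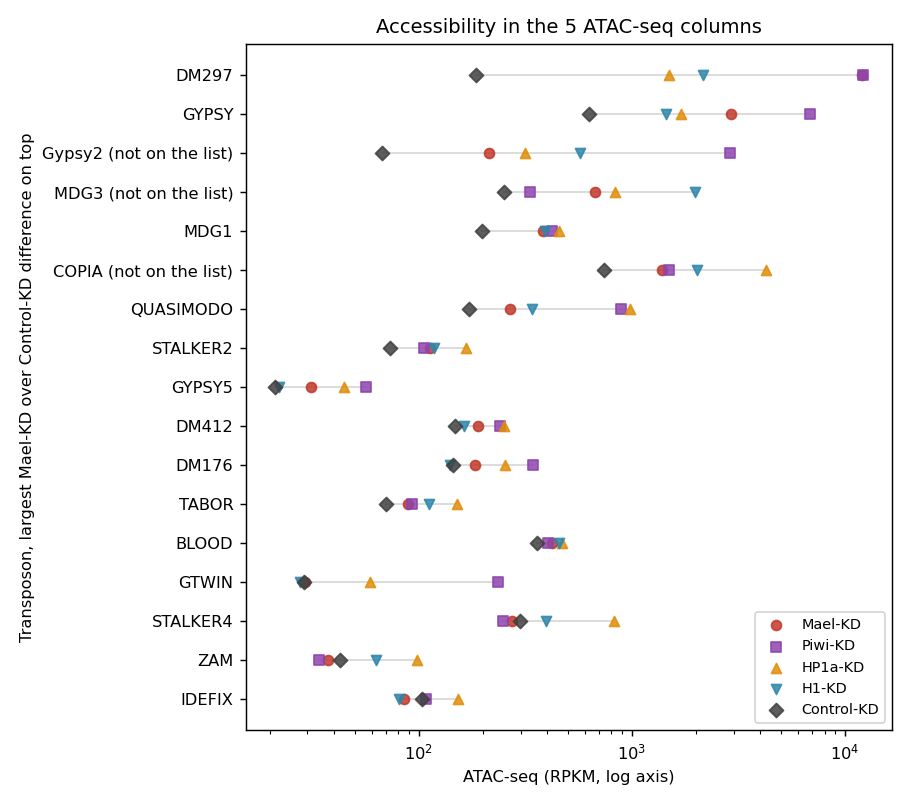
ATAC-seq values (log axis, RPKM) in the Mael-KD, Piwi-KD, HP1a-KD, H1-KD and Control-KD columns for the 14 kept members of the OSC target list and the 3 other transposons that were at least 1.5-fold higher in Mael-KD. Each symbol is 1 column. DM297 is at 11981 RPKM in Mael-KD and 12132 RPKM in Piwi-KD, Gypsy2 and GTWIN have their highest value in Piwi-KD, MDG3 in H1-KD and COPIA in HP1a-KD.

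By class, the higher values lay among LTR elements. Of the 55 LTR elements 8 passed 1.5-fold upwards and 0 downwards, beside 8.33% and 2.08% of all 96. At those shares a small class would hold few such rows or none. The median log2 difference of the LTR elements was -0.22. Of the 25 rows placed among non-LTR elements, 0 passed in either direction, and the median was -0.34. BAGGINS1, which passed downwards, was put in no class, so the 0 downwards depends on that placement. Relative to the median transposon these medians are 0.01 and -0.11. The mdg1 group, which takes in DM412, had 2 of 8 higher and a median of 0.33, and 8 of its 8 members were above the median of all 96. MDG1, STALKER2, STALKER4, BLOOD, DM412 and TABOR among them are also on the OSC target list, which was chosen with these data known. The gypsy and mdg3 groups had 5 of 36 higher, yet their median was -0.23, the same as that of all transposons to 2 decimals. Their 5 were DM297, GYPSY, Gypsy2, MDG3 and QUASIMODO.

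COPIA was the only one of 4 copia elements above the control, and the class median was -0.34. Among the 7 BEL/Pao elements, the LTR group of ROO and DIVER, only DIVER was above the control (0.39), and the median was -0.34. The 16 jockey-clade elements, non-LTR retrotransposons, had a median of -0.34 with 1 above the control. The 4 R elements kept (R1, R2, DMRT1A and DMRT1B) were all below it, between -0.54 and -0.45. The 3 telomeric elements kept, which maintain chromosome ends in Drosophila, had a median of -0.05, and the 12 DNA transposons had a median of -0.10, both above the median of all 96, by 0.18 and 0.13. The 2 I-clade elements had a median of -0.20, and the 4 rows put in no class, BAGGINS1 among them, had a median of -0.32.

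**Figure D4:**
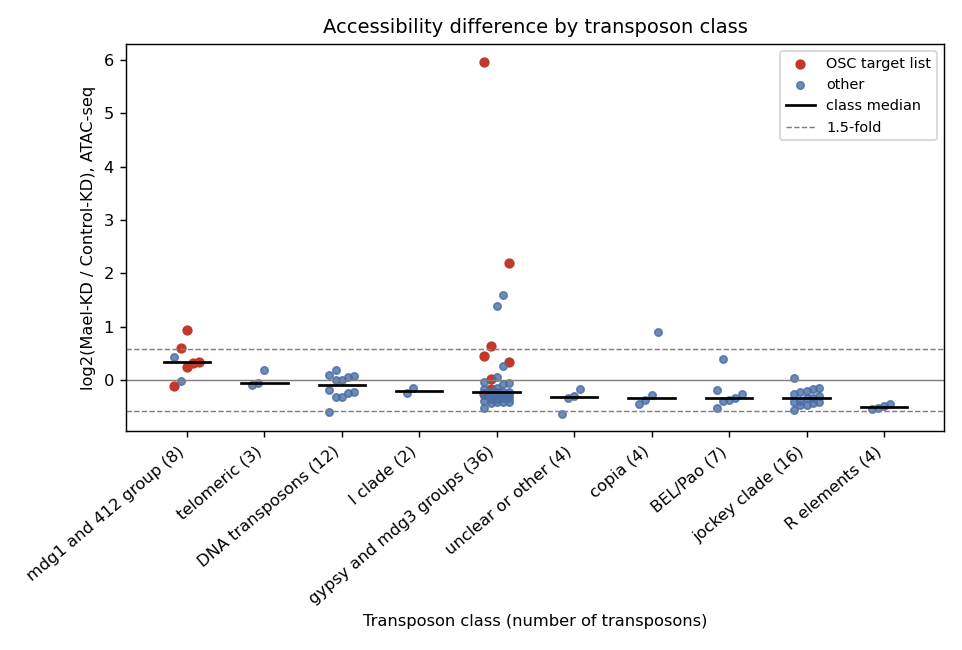
Log2 difference in ATAC-seq between Mael-KD and Control-KD for each of the 96 transposons, grouped by class and ordered by class median (black bars), with dashed lines at 1.5-fold. The 8 points above the upper dashed line are all LTR elements, and the mdg1 group, with DM412, has the highest median, 0.33.

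The 33 rows left out for low values had at most 17.2 RPKM in Mael-KD and 19.1 RPKM in Control-KD. None of them passed 1.5-fold with the pseudocount, but 5.80 RPKM is large beside such values and makes a pass unlikely in advance. Without it, rows past 1.5-fold lower included G3 (0.594, 0.431 to 0.816), DMRT1C (0.656, 0.552 to 0.779) and LOOPER1 (0.618, 0.381 to 0.992). The row with the largest positive difference among the 33, Transib-N1, a DNA element, had 10 reads in Mael-KD and 4 in Control-KD. Its ratio was 2.06, with an interval of 0.594 to 8.99. TLD3 had no reads in either column, and no length could be recovered for it.

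Mael-KD and Piwi-KD cells were compared directly, without the control column, to see where loss of Mael and loss of Piwi left transposons at different levels. For 88 of the 96 transposons the 2 columns were within 1.5-fold of each other, and the median log2 difference was 0.06. In Mael-KD 1 transposon was at least 1.5-fold higher than in Piwi-KD (1.04%) and 7 were lower (7.29%). DM297 had 11981 RPKM in Mael-KD and 12132 RPKM in Piwi-KD, a ratio of 0.988 (0.983 to 0.992). MDG1 (384 RPKM in Mael-KD, 421 in Piwi-KD), COPIA (1379 in Mael-KD, 1496 in Piwi-KD) and STALKER2 (113 in Mael-KD, 105 in Piwi-KD) also lay within 1.5-fold.

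The 7 that were lower in Mael-KD than in Piwi-KD were Gypsy2, GTWIN, QUASIMODO, GYPSY, DM176, GYPSY5 and DM412B. Gypsy2 had 213 RPKM in Mael-KD and 2881 RPKM in Piwi-KD, a log2 difference of -3.73. GTWIN had 29.2 RPKM in Mael-KD and 235 RPKM in Piwi-KD, a difference of -2.78. The Mael-KD value of GTWIN is close to the 29.0 RPKM of the control. QUASIMODO had 269 RPKM in Mael-KD and 886 RPKM in Piwi-KD, and GYPSY had 2917 RPKM in Mael-KD and 6848 RPKM in Piwi-KD. These differ by -1.70 and -1.23 on the log2 scale.

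DM176, GYPSY5 and DM412B differed by -0.89, -0.75 and -0.68. Every one of the 7 had a higher value in Piwi-KD than in the control. This followed from how the 7 were chosen, since none of them was below the control in Mael-KD. HOBO, at -0.45, was the next in order. MDG3 was the exception in the other direction, with 668 RPKM in Mael-KD and 332 RPKM in Piwi-KD, a ratio of 2.01 (1.96 to 2.06). The next highest relative to Piwi-KD were DMTOM1 (0.42), DIVER (0.38), Jockey (0.38), INVADER4 (0.37), STALKER3 (0.37), GYPSY6A (0.32) and BARI (0.32), all within 1.5-fold. DMTOM1 rests on 47 reads in Mael-KD and 45 in Piwi-KD, and STALKER3 on 93 in Mael-KD and 97 in Piwi-KD. The counting intervals of their ratios, 0.938 to 2.22 and 0.986 to 1.78, hold 1.

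**Figure D5:**
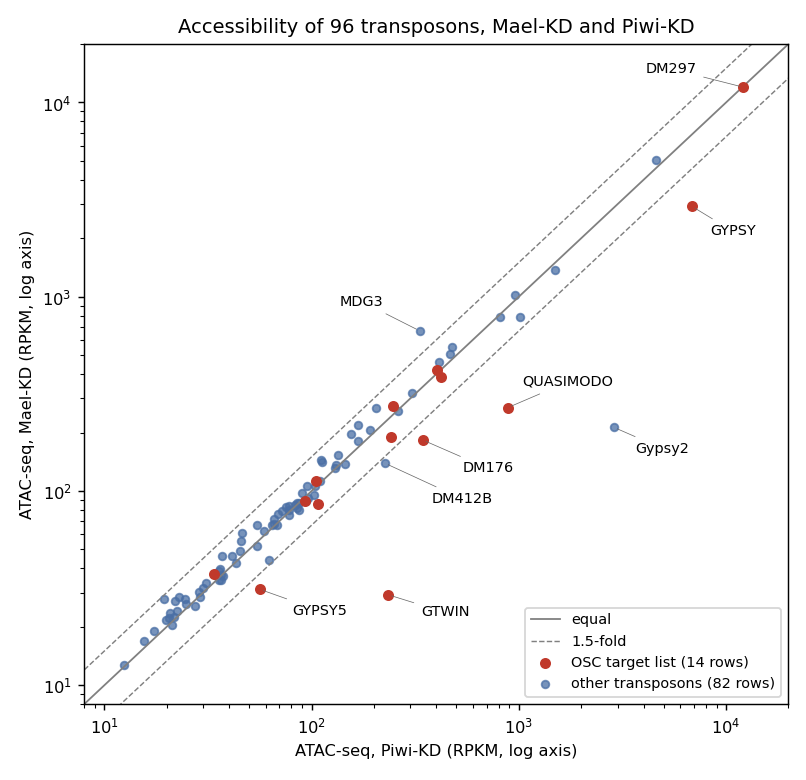
ATAC-seq values of the 96 transposons in Mael-KD (vertical log axis, RPKM) against Piwi-KD (horizontal log axis, RPKM), with lines of equality and of 1.5-fold drawn without the pseudocount. DM297 lies on the line of equality, the 7 labelled transposons below the lower dashed line include GTWIN and Gypsy2, and MDG3 is the single point above the upper one.

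Against HP1a-KD, 2 of 96 transposons were at least 1.5-fold higher in Mael-KD (2.08%) and 30 were lower (31.2%), with a median of -0.45. The 2 were DM297, at 11981 RPKM in Mael-KD and 1489 RPKM in HP1a-KD, and GYPSY, at 2917 RPKM in Mael-KD and 1690 RPKM in HP1a-KD. COPIA was lower, with 1379 RPKM in Mael-KD and 4265 RPKM in HP1a-KD. Against H1-KD, 3 were higher in Mael-KD (3.12%), namely DM297, GYPSY and DOC6, and 6 were lower (6.25%), with a median of -0.16. The lowest of these was MDG3, at 668 RPKM in Mael-KD and 1979 RPKM in H1-KD.

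Set against the same control column, 8 of 96 transposons were higher in Mael-KD (8.33%), 11 in Piwi-KD (11.5%), 30 in HP1a-KD (31.2%) and 12 in H1-KD (12.5%). The 4 comparisons share that column. The members of the OSC target list that were higher numbered 5 in Mael-KD, 8 in Piwi-KD, 12 in HP1a-KD and 6 in H1-KD, of 14 each. Of the 5 columns, Mael-KD held the highest value for 1 of the 96 transposons and the lowest for 18.

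H1 occupancy was measured by ChIP-seq in Mael-KD and Control-KD cells, with 1 library and 1 input on each side, both of sample number 2 and separate from the ATAC-seq libraries. H1 packs nucleosomes, and its level over input was compared at the transposons with higher accessibility. H1 over input was at least 1.5-fold higher in Mael-KD at 0 of 96 transposons (0%) and lower at 3 (3.12%), and its median log2 difference was -0.06. Among the 8 with higher accessibility the median was -0.24 and 7 were below the control, beside 57 of all 96. DM297 had an H1 over input of 0.847 in Mael-KD and 1.06 in Control-KD, GYPSY had 0.865 in Mael-KD and 1.11 in Control-KD, and MDG1 had 0.904 in Mael-KD and 1.14 in Control-KD.

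MDG3 was the one of the 8 with no lower H1, at 1.09 in Mael-KD and 1.05 in Control-KD. None of the 8 reached 1.5-fold in H1. At DM297 an accessibility log2 difference of 5.97 stood beside an H1 log2 difference of -0.31. The 3 that were lower were DMTOM1, DM412B and PROTOP_B, at -1.27, -1.25 and -0.60. They rest on only 3, 34 and 30 input reads in Mael-KD, and their input DNA was itself higher there, with log2 differences of 0.68, 0.49 and 0.67. The input log2 difference of the 8 transposons with higher accessibility lay between -0.06 and 0.10, and with ATAC-seq values divided by input the same 8 were higher.

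The 8 transposons with higher accessibility in Mael-KD were then followed into the other libraries of the series. The samples of the series include no Mael-KD library of RNA, Piwi-bound small RNA, H3K9me3 or HP1a, so the values below are from other cells. RNA of DM297 was 728 RPKM in Piwi-KD and 8.18 RPKM in Control-KD. RNA of GYPSY was 1662 RPKM in Piwi-KD and 36.2 RPKM in Control-KD, and RNA of MDG1 was 1164 RPKM in Piwi-KD and 33.8 RPKM in Control-KD. All 8 were among the 32 transposons with the largest RNA difference between Piwi-KD and Control-KD. COPIA differed from the others in its high control RNA, 38022 RPKM in Piwi-KD and 23623 RPKM in Control-KD.

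Piwi-bound small RNA in control cells was abundant at most of the 8. It came to 1673 RPM per kilobase of consensus for DM297, 3406 for GYPSY, 2319 for MDG1 and 417 for MDG3, but 39.2 for COPIA, and 7 of the 8 were among the 32 of 96 transposons with most. The relation of abundance to the accessibility differences within the OSC target list was not tested. Its members GTWIN, with 6390 RPM per kilobase, and DM412, with 4299, had log2 differences of 0.01 and 0.34. H3K9me3 over input was 1.16 in Piwi-KD and 4.72 in Control-KD for DM297, and 2.21 in Piwi-KD and 6.75 in Control-KD for GYPSY. For MDG3 it was 1.97 in Piwi-KD and 2.09 in Control-KD.

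Across the 96 transposons, the ATAC-seq difference had a Spearman correlation of 0.53 with the RNA difference in Piwi-KD, 0.48 with Piwi-bound small RNA per kilobase, 0.40 with control RNA, -0.49 with control H1 over input and -0.60 with the H3K9me3 difference in Piwi-KD. Over the 82 transposons not on the OSC target list the values were 0.35, 0.30, 0.41, -0.51 and -0.51. With control HP1a over input the correlation was -0.34, and with control H3K9me3 over input it was -0.11. Over the 82 transposons not on the list these were -0.50 and -0.44. With the H1 difference in Mael-KD the correlation was -0.08, with control input DNA it was 0.16, and with the RNA difference in H1-KD it was -0.11. For the 82 transposons not on the list these were 0.14, 0.03 and -0.33. These are descriptions across transposons that share libraries, base composition and sequence, and carry no test. Of the 8 transposons with higher accessibility, 5 were among the 32 with least control H1 and 0 among the 32 with most. For control H3K9me3, 2 of the 8 were among the 32 with least and 5 among the 32 with most. For control HP1a, 2 were among the 32 with least and 1 among the 32 with most.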

How the data were processed

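The 11 tables of the series, as deposited by the authors, list transposon consensus rows. Deposited ATAC-seq, RNA, ChIP and input values are RPKM and small RNA values are RPM. The units are not named in the sources used here and were deduced from the values: with 1 length per row and 1 total per column, 3606 of 3606 nonzero values came out as whole reads within 0.05. Lengths were recovered for 128 rows. Per the submitters' processing notes, build dm3, MACS2 and cutadapt were used for ATAC-seq, in roles not stated. Whether a column pools the 2 replicates, whether reads were shifted for the transposase, and how multi-mapping reads were counted are not given there. The planned limma fit needs a column per replicate and was not possible. Ratios have exact Clopper-Pearson 95% counting intervals without pseudocount, which for PCR reads without molecular identifiers cover counting error only. Each ChIP value was divided by its own knockdown's input value of equal sample number, with pseudocounts of 4.51 RPKM for H1 and 4.45 RPKM for input. Python 3.11.15 with SciPy 1.17.1 was used, and the steps were tested on simulated data. Named transposons are the OSC target list, the 12 largest positive and 8 largest negative differences, the 10 largest gains in read share, the 3 on each side of the threshold, the 8 highest and 8 lowest against Piwi-KD, and any member of a count of 5 or fewer. Others are named where a result turns on them. Members, lists and thresholds were chosen with earlier results of these data known.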

Additional observations from a re-analysis of the deposited data

How the results depend on the processing

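The count of 8 higher transposons was 8 with a pseudocount of 0.02 of the median, with no filter on low values, with a filter on the Mael-KD and Control-KD columns alone and with values divided by input DNA. With no filter the pseudocount still pulled low rows towards no difference, so that setting says little about them. The count changed under the other settings. The count of higher transposons was 6 with a pseudocount of 0.5 of the median (without QUASIMODO and STALKER2), 11 relative to the median transposon, 10 when scaled by reads outside transposons, and 4 when counted at 2-fold. The count of 2 lower transposons was 0 with the larger pseudocount, relative to the median, scaled by reads outside transposons and at 2-fold, 3 with the smaller pseudocount (with GYPSY3), and 5 after division by input DNA (DMTOM1, G5A, HOBO, PROTOP_B and TLD2). For the OSC target list the median, 0.33, became 0.57 relative to the median transposon and 0.50 when scaled by reads outside transposons. The gain in read share, 9.53 percentage points, was 1.77 without DM297. The 8 higher and 2 lower transposons kept their direction as deposited under these settings, but DM412B, counted as higher relative to the median and with scaling by reads outside transposons, was at -0.06 after division by input DNA, and PROTOP_B, counted as lower there, was at 0.05 as deposited. No paired analysis was possible because the ATAC-seq columns carry no replicate number, and for the same reason no replicate could be left out. Few reads limit rows such as TIRANT and Transib-N1, with at most 10 reads in Mael-KD and Control-KD.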
